A study of Mus musculus with 31 samples.

Results

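The untreated lactating gland was represented by 8 of the 31 mammary gland libraries of the series, those whose labels gave breeder diet and saline, and no other property was used to choose them. The study asked how fluoxetine, an antidepressant that blocks serotonin reuptake, and extra dietary folic acid act on the gland at peak lactation, and these dams were its controls. They were C57BL/6J females bred from 6 weeks of age. They ate the breeder diet, which held 4 mg of folic acid per kg, from 2 weeks before mating, and they received saline injections daily from embryonic day 13 until lactation day 10, the day on which the gland was collected. RNA of pieces of whole frozen gland was captured by its poly-A tail and sequenced on a NovaSeq, with 1 library per dam, so every cell type of the tissue contributed. The dams are numbered as in the labels, as dams 1, 2, 3, 4, 6, 10, 11 and 12. The glands are described here on their own, without comparison with the treated groups.

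The libraries held from 15412542 counts in dam 2 to 23848706 in dam 10, with a median of 21005378.5. Of 55379 listed genes, 14032 had a count in every library and 29674 had none in any. Between 16484 genes (dam 4) and 20160 genes (dam 11) had at least 1 count. Over the 28 pairs of libraries, Pearson correlations of log2 levels across genes ranged from 0.894 to 0.969. No pair was close enough to be a single library deposited again, since the lowest chi-square per degree of freedom between counts was 14.4. A gene in dam 4 or dam 10 differed from its level in the other dams by a median of 1.26-fold, and in dam 3 by 1.23-fold. In the other 5 dams this distance was between 1.19-fold and 1.20-fold.

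During lactation, the secretory luminal cells of the alveoli make the caseins and whey proteins of milk, assemble its fat and synthesise lactose. Prolactin maintains this programme through its receptor, the kinase JAK2 and the transcription factor STAT5, while contractile myoepithelial cells around each alveolus expel milk in response to oxytocin. Milk fat leaves the cell as droplets wrapped in membrane with butyrophilin and xanthine oxidoreductase, and calcium is pumped into milk by the plasma membrane pump encoded by Atp2b2. Serotonin made in the gland is known to act on calcium mobilisation and on the end of lactation.

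The proximal promoters of the most abundant messages are shown first, since 3 genes that differ in these letters stood together at the top of the ranking. Each window holds the 250 bases before the RefSeq transcription start, read 5′ to 3′ on the gene's strand in build GRCm38.p6, whereas the counts were mapped to GRCm39. The windows are chr11:6638650-6638899 on the minus strand for Wap, chr5:87699426-87699675 on the minus strand for Csn2, and chr5:87665958-87666207 on the plus strand for Csn1s1. Capitals mark TTCNNNGAA, the palindrome that STAT factors bind, which was searched on both strands.
Wap: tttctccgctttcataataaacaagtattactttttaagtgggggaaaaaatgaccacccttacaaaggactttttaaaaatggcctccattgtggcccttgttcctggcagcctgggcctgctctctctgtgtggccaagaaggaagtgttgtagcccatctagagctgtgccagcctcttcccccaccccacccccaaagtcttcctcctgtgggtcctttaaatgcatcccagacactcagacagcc
Csn2: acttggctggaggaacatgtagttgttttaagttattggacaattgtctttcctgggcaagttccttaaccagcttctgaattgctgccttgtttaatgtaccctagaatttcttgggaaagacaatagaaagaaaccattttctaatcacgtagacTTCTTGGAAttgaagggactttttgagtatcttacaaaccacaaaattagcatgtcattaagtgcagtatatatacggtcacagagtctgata
Csn1s1: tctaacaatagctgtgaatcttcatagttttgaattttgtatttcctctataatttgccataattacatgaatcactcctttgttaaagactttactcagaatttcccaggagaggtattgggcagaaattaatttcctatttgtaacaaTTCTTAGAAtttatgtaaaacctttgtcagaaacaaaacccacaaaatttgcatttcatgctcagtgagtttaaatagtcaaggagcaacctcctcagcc
The match in Csn2 ended 85 bases before the start and the match in Csn1s1 ended 92 bases before it. No match was found in the Wap window, which says only that these letters are not in those 250 bases. Of the 32851 RefSeq promoter windows of this length, 2306 (7.02%) held the motif. Of the 7339 windows of protein-coding genes with a mean of at least 5 normalised counts per 1000000, 402 (5.48%) held the motif. Among the 20 most abundant protein-coding genes with a window, 3 held it (Csn2, Csn1s1 and Glycam1), as did 11 of the 126 windows (8.73%) of the 100 most abundant ones. Of the 20 genes with the most counts, 11 had a window. A match in these letters is a description of the sequence and not evidence of a bound site.

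The label mammary gland was checked against 5 genes of secretory luminal cells, all of which ranked among the 20 most abundant. Levels between dams are given as counts per 1000000 counts of the library total (CPM). Wap, the whey acidic protein of rodent milk, ranged from 162606 CPM in dam 12 through a median of 186688 to 227184 in dam 4, and it was the top gene in all 8 libraries. Csn2, encoding beta-casein, ranged from 144691 CPM in dam 11 through 153244 to 172262 in dam 6. Csn1s1, encoding an alpha-casein, ranged from 120131 CPM in dam 2 through 129168 to 132606 in dam 11. Its extremes turned with scaling by trimmed mean of M-values (TMM) factors, which gives normalised CPM, since dam 11 was then lowest at 113815 and dam 10 highest at 136626. As CPM of the library total, all 3 messages were at comparable levels in every gland. In normalised CPM dam 11 was the lowest for each of the 3, with Csn2 at 124187 against a median of 157879. Csn1s2a, another alpha-casein gene, ranged from 96451 CPM in dam 11 through 103701 to 115143 in dam 6. Lalba encodes alpha-lactalbumin, the regulatory subunit of lactose synthase. It ranged from 2797 CPM in dam 6 through 3998 to 4416 in dam 11. In normalised CPM the lowest dam for Wap was dam 11 and the highest for Lalba was dam 2.

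Counts were concentrated on a handful of messages. In each library the leading 5 genes held 63.5% ± 2.26 (SD, n = 8) of counts, with 60.04% in dam 11 and 65.9% in dam 10. The top 20 held 76.7% ± 1.57 and the top 100 held 81.7% ± 1.23. The first 50% of counts was reached with a median of 4 genes, and with 3 in dam 10. Reaching 90% took a median of 1035 genes, from 889 to 1544, and dam 11 needed the most. The mean over the dams was at least 100 CPM in 334 genes and at least 1 CPM in 11464.

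**Figure D1:**
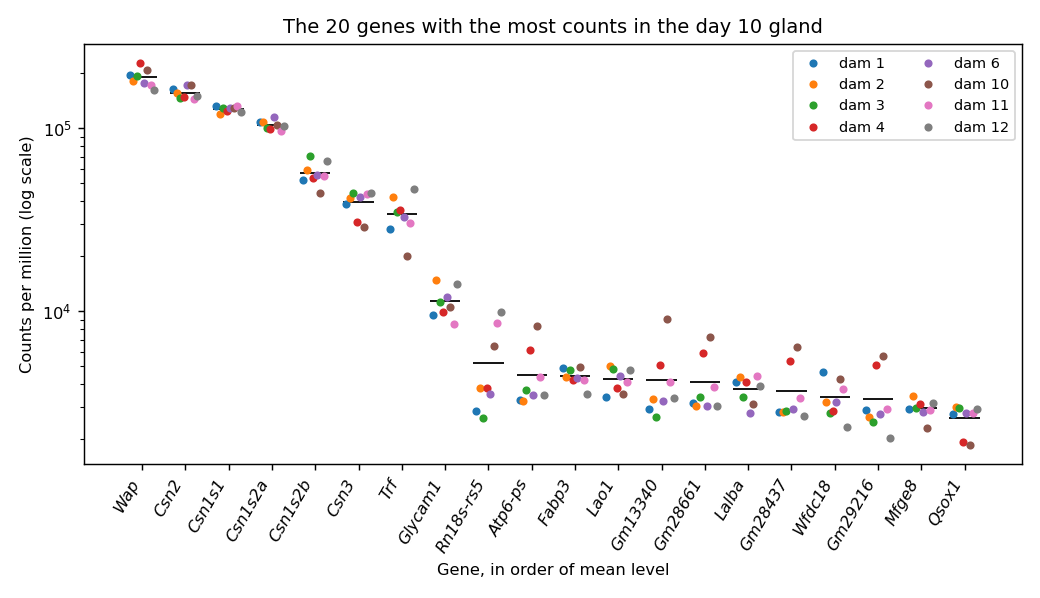
CPM of the library total (vertical log axis) of the 20 genes with the highest mean, in order of that mean (horizontal axis). Points are the 8 dams by colour and bars are means, which fall from 189567 CPM for Wap to 2621 CPM for Qsox1, with the widest scatter in Rn18s-rs5 and in the pseudogenes named Gm13340, Gm28661, Gm28437, Gm29216 and Atp6-ps.

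The plot of the 20 leading genes shows 8 milk protein genes at the top, none of which fell under 8574 CPM in any dam. In GRCm39, Wap lies on chr11:6585482-6588637, and the 5 casein genes lie together on chromosome 5, from Csn1s1 at chr5:87814067-87830437 to Csn3 at chr5:88073438-88080524. After the 4 genes above came Csn1s2b, a further casein gene, at 57075 CPM ± 8193 (SD, n = 8). Csn3, whose kappa-casein stabilises the casein micelle, stood at 39354 CPM ± 6150. Trf, encoding the iron carrier transferrin, stood at 33820 CPM ± 8270, with 19935 in dam 10 and 46639 in dam 12. Glycam1, a mucin-like milk protein gene, stood at 11354 CPM ± 2186.

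The other protein-coding genes of the top 20 included further secreted and lipid-binding proteins. Fabp3, a fatty acid-binding protein, stood at 4418 CPM ± 474 (SD, n = 8). Lao1, an L-amino acid oxidase that makes hydrogen peroxide in mouse milk, stood at 4246 CPM ± 628. Wfdc18, which has a whey acidic protein domain, stood at 3384 CPM ± 797. Mfge8 encodes the milk fat globule protein lactadherin and stood at 2952 CPM ± 330. Qsox1, a secreted sulfhydryl oxidase, stood at 2621 CPM ± 459. Fasn, encoding fatty acid synthase, came next at 2506 CPM ± 746. The remaining 6 of the top 20 were not messages of protein-coding genes and are described with the gene classes.

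Counts depend on transcript length, so levels of different genes were compared per length, as estimated transcripts per 1000000 transcripts (TPM). With the length of all annotated exons merged, the lengths exceeded those of the canonical transcript several-fold for some milk genes, such as 6926 against 1329 bases for Csn2. In that calculation Gm55118, a gene of 57 bases annotated as a miRNA, came between Csn1s2a and Csn2. It held 0.160% of counts but 6.52% of TPM, since its counts were divided by that short length. Its rank is therefore not a reliable measure of transcript level. On these lengths, 3 of the 19 neighbouring pairs in the order of the top 20 differed (two-sided exact sign-flip permutation test over 8 dams, Benjamini-Hochberg adjusted p = 0.0495 for each). Those 3 pairs were Wap over Csn1s2a, Csn1s1 over Csn1s2b and Csn1s2b over Csn3. TPM from canonical transcripts of protein-coding genes was added after these values were seen. On that scale Wap held 374952 TPM ± 31084 (SD, n = 8), followed by Csn2 with 128792 ± 9277, Csn1s2a with 124147 ± 7612, Csn1s1 with 98400 ± 4879 and Csn1s2b with 77073 ± 11797.

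Of the 19 neighbouring pairs on the canonical scale, 12 differed beyond their spread between dams. The log2 ratio of the Wap level to the Csn2 level was 1.54 ± 0.18 (SD), above 0 in 8 of 8 dams (exact permutation test, two-sided, p = 0.0078125, the smallest that 8 dams allow, adjusted p = 0.0165). Csn2 and Csn1s2a were almost level, with a log2 ratio of 0.05 ± 0.06, above 0 in 7 of 8 dams (exact permutation test, adjusted p = 0.0405). On merged exons their order was the reverse, with 53445 TPM for Csn2 and 70569 TPM for Csn1s2a, so it depends on the lengths used. Below the caseins came Glycam1 at 19564 TPM and Trf at 14409 TPM, which had the reverse order in counts. Fabp3 at 5856 TPM and Lalba at 5364 TPM were not told apart (exact permutation test, adjusted p = 0.336, higher for Fabp3 in 4 of 8 dams). Neither were Mfge8 and Wfdc3, Wfdc3 and Cidea, or Cidea and Rpl41, nor were Tpt1 and Fth1, Fth1 and Qsox1, or Qsox1 and Eef1a1. These p-values measure the spread between the 8 dams. They do not cover the choice of lengths, and the order they test was set by the same values.

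By gene class, milk proteins took most counts. The 5 caseins held 48.5% ± 1.72 of counts (SD, n = 8), from 45.6% in dam 4 to 51.4% in dam 6. The 11 other milk proteins listed, Wap included, held 24.4% ± 1.82, from 22.1% in dam 11 to 28.2% in dam 4. The dam with the smallest casein share thus had the largest share of the other milk proteins. All other protein-coding genes, without the ribosomal proteins and immunoglobulins, held 21.9% ± 1.58, from 20.1% in dam 10 to 25.1% in dam 11. Counts outside milk proteins made up 27.1% ± 1.65 of a library, and depth for other genes was reduced accordingly. The order of these classes per length turned with the lengths used. On merged exons the caseins held 22.6% and the other milk proteins 48.5% of TPM, and on canonical transcripts, added after the values were seen, they held 46.2% and 41.7%.

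**Figure D2:**
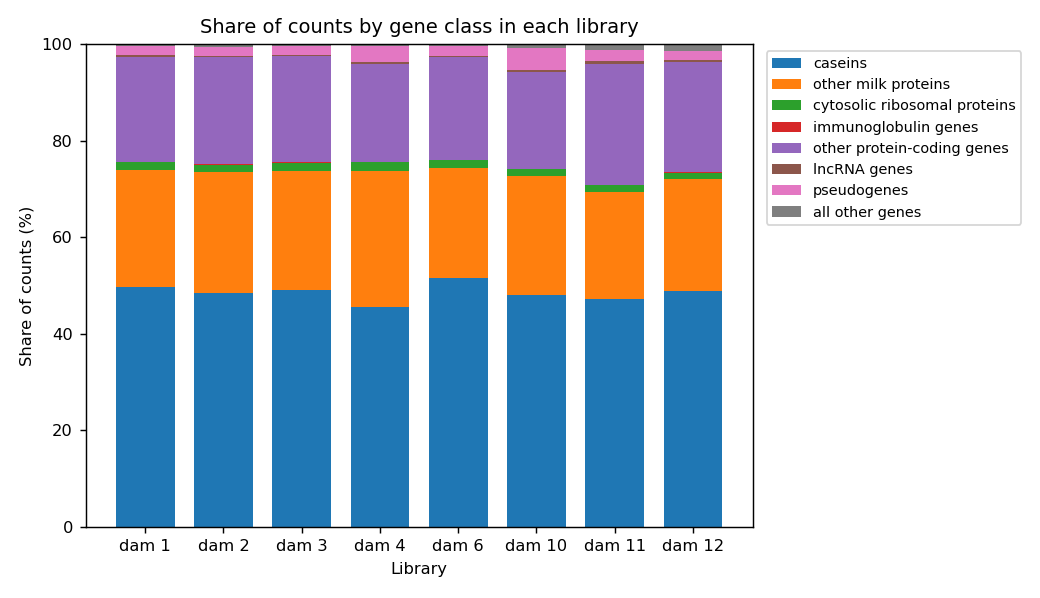
Share of counts in percent (vertical axis, stacked to 100) by gene class in each of the 8 libraries (horizontal axis). Caseins take between 45.6% and 51.4%, other milk proteins between 22.1% and 28.2%, and the pseudogene band is widest in dam 10, at 4.43%.

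Relative to their means, the shares of small classes varied more between glands than those of the milk proteins. Genes of the cytosolic ribosome held 1.53% ± 0.162 of counts (SD, n = 8). Long non-coding RNA genes held 0.362% ± 0.0854. Immunoglobulin genes held 0.136% ± 0.0779, from 0.00627% in dam 10 to 0.233% in dam 3. The stacked shares by library show this last class as a thin band that is not visible in dam 10.

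Pseudogenes held 2.46% ± 0.935 of counts (SD, n = 8), and nearly all of these counts fell on copies of the mitochondrial genome. The deposited tables listed 0 genes of the mitochondrial chromosome itself. Of 88 pseudogenes with at least 5 CPM, 13 were at least 90% identical to mitochondrial DNA over at least 50% of their length, and these held 90.9% of all pseudogene counts. Atp6-ps at 4503 CPM, Gm28661 at 4090 CPM and Gm28437 at 3651 CPM are 100% identical to it and lie side by side in GRCm39 within chr1:24650616-24655278. Gm13340 at 4225 CPM is 97.6% identical and lies at chr2:22478115-22479659. Reads of the copies that are 100% identical cannot be assigned to the nuclear copy or the mitochondrial gene, so their levels are uncertain as levels of nuclear genes. Other copies are less alike, down to 92.3% identity for Gm11407. How reads of those copies were placed was not tested, so their levels are uncertain too. The 13 genes together held 4.23% of counts in dam 10, 3.09% in dam 4 and 2.17% in dam 11, against 1.69% to 1.73% in the other 5 dams.

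Ribosomal RNA and a small group of further genes formed the rest. Rn18s-rs5, annotated as 18S ribosomal RNA, held 6820 normalised CPM in dam 10, 7409 in dam 11 and 9643 in dam 12, against 2607 to 3973 in the other 5 dams. The TMM factors behind normalised CPM lay between 0.951 and 1.165. Gm55118 was also highest in dams 10, 11 and 12, at 1903, 2599 and 3665 normalised CPM, and lay between 559 and 1120 in the others. Lars2, which encodes the mitochondrial leucyl-tRNA synthetase, had 1322, 1632 and 2256 normalised CPM in these 3 dams and 416 to 673 in the rest. Gm55118 and Lars2 showed no sequence match to Rn18s-rs5 or to the mitochondrial chromosome. No other ribosomal RNA sequence was searched, so whether their reads come from ribosomal RNA was not tested. The labels name no extraction or library batch.

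Genes of the milk fat globule and of fat uptake had a steady sum, at 14746 CPM ± 464 (SD, n = 8), which includes Mfge8 of the milk protein class. All 12 listed genes exceeded 5 normalised CPM, which here and in the lists that follow refers to the mean over the dams. Cidea, which promotes lipid droplet fusion and droplet secretion, ranged from 1406 CPM in dam 10 through 1537 to 2037 in dam 3, but dam 11 was its lowest dam in normalised CPM. Lpl, the lipase that frees fatty acids from circulating lipoproteins, ranged from 1280 CPM in dam 12 through 1533 to 1953 in dam 4. Xdh and Btn1a1 encode the droplet coat proteins xanthine oxidoreductase and butyrophilin. Xdh ranged from 830 CPM in dam 3 through 1310 to 2099 in dam 12. Btn1a1 ranged from 584 CPM in dam 10 through 1163 to 1226 in dam 12, and dam 6 was its highest dam in normalised CPM.

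Fatty acid synthesis was abundant but less even. The 17 listed genes summed to 9510 CPM ± 1819 (SD, n = 8), and dams 10 and 3 had the lowest sums, at 6877 and 7589 normalised CPM against 9008 to 12017 in the others. Fasn held 1149 normalised CPM in dam 3 and 1994 to 3222 in the other 7. Acaca, encoding acetyl-CoA carboxylase, held 248 normalised CPM in dam 3 and 508 to 626 in the others, and Acly, encoding ATP citrate lyase, 245 against 396 to 607. Scd1, the main stearoyl-CoA desaturase gene of the gland, was instead lowest in dam 10, at 857 normalised CPM against 1272 to 2558 elsewhere. The related desaturase gene Scd2 was low in both dams, at 16.8 in dam 10 and 24.8 in dam 3 against 87.4 to 272 normalised CPM in the other 6. Olah, whose thioesterase ends synthesis early to give the medium-chain fatty acids of milk, did not share this pattern and held 951 normalised CPM in dam 10 and 960 in dam 3, within the range of the others.

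Cholesterol synthesis was likewise lowest in dams 3 and 10. The 12 listed genes summed to 222 CPM ± 72.4 (SD, n = 8), with 114 normalised CPM in dam 3 and 128 in dam 10 against 217 to 292 in the other 6. Sqle, encoding squalene epoxidase, held 12.5 in dam 10 and 22.0 in dam 3 against 35.4 to 57.8 normalised CPM in the others. Both dams were below every other dam in the summed list and in Sqle.

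Triglyceride assembly ran the other way in dam 10. Its 8 listed genes summed to 582 CPM ± 103 (SD, n = 8), and dam 10 had the highest sum at 791 normalised CPM against 478 to 711. Lpin1, the phosphatidate phosphatase lipin 1, held 360 normalised CPM in dam 10 and 136 to 259 in the others. Gpat4, a glycerol phosphate acyltransferase, held 246 normalised CPM in dam 6 and 230 in dam 10, and 137 to 180 elsewhere.

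Genes for lactose and for glucose uptake were led by the lactose synthase pair. The 11 listed genes all exceeded 5 normalised CPM and summed to 4911 CPM ± 701 (SD, n = 8), most of it Lalba. B4galt1, the catalytic subunit, ranged from 644 CPM in dam 3 through 929 to 1032 in dam 6. Slc2a1, the main glucose transporter of the gland, ranged from 50.2 CPM in dam 10 through 60.6 to 84.1 in dam 12.

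The 15 listed genes of calcium transport summed to 1128 CPM ± 174 (SD, n = 8), and 13 exceeded 5 normalised CPM. Atp2b2 held 133 normalised CPM in dam 3, 288 to 387 in 6 dams and 435 in dam 10. Nucb2, encoding the calcium-binding protein nucleobindin 2, was the most even of the list and ranged only from 239 to 285 normalised CPM. Atp2c2, a Golgi calcium and manganese pump, held 144 in dam 3 and 205 to 294 normalised CPM in the other 7. Pthlh encodes the parathyroid hormone-related protein that mobilises maternal bone calcium. It held 7.07 normalised CPM in dam 3, 12.7 in dam 10 and 22.7 to 30.9 in the other 6. Casr, the calcium-sensing receptor gene, averaged only 0.0747 CPM and had no count in 4 dams.

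Messages of the serotonin pathway, the target of the drug used elsewhere in the study, were scarce in these control glands. None of 13 listed genes reached a mean of 5 normalised CPM over the dams, and the list summed to 8.21 CPM ± 2.74 (SD, n = 8). Tph1, encoding the tryptophan hydroxylase that limits peripheral serotonin synthesis, ranged from 0.257 CPM in dam 12 through 0.671 to 1.62 in dam 2. Maoa, which degrades serotonin, ranged from 0.871 CPM in dam 4 through 2.95 to 5.81 in dam 3. Slc18a1, a vesicular monoamine transporter gene, averaged 1.77 CPM and was highest in dam 3. Slc6a4, the serotonin transporter that fluoxetine blocks, had 0 counts in all 8 libraries, as had Tph2, Htr1b and Htr2a. With 3 counts taken as the limit that 0 allows, these 4 genes lay under 0.126 CPM in the deepest library and under 0.195 CPM in the shallowest, counting error only. Among receptor genes, Htr1d averaged 0.724 CPM, Htr7 0.0424 CPM and Htr2b 0.0145 CPM.

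Among the regulators of the secretory state, Elf5, a transcription factor of alveolar cells, ranged from 486 CPM in dam 10 through 578 to 698 in dam 11. Prlr, the prolactin receptor gene, ranged from 26.2 CPM in dam 10 through 31.7 to 35.3 in dam 11. Stat5a ranged from 33.1 CPM in dam 3 through 70.3 to 93.4 in dam 11. In normalised CPM dam 11 was the highest in none of the 3, and the highest dams were dam 1 for Elf5, dam 6 for Prlr and dam 10 for Stat5a, while dam 3 was the lowest for Prlr. Of 19 listed genes 15 exceeded 5 normalised CPM. Cish, a STAT5-induced suppressor of cytokine signalling, held 17.1 normalised CPM in dam 3 and up to 48.9 in dam 6. Esr1, the oestrogen receptor alpha gene, averaged 16.8 CPM, and the progesterone receptor gene Pgr averaged 0.147 CPM.

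Endoplasmic reticulum chaperones and secretory factors had their lowest sum in dam 10, and dam 3 came next, close to the other dams. The 14 listed genes summed to 1277 CPM ± 282 (SD, n = 8), with 780 normalised CPM in dam 10 and 1112 in dam 3 against 1214 to 1629 in the others. Hspa5, encoding the chaperone BiP, held 66.4 in dam 10 and 66.8 in dam 3 against 126 to 244 normalised CPM in the other 6. Xbp1, a transcription factor of the unfolded protein response, was not low in dam 3, at 477 normalised CPM against 267 to 455. Amino acid transporter genes summed to 459 CPM ± 95.3, and Slc3a2, the shared heavy chain of several of them, was highest in dam 3 at 173 normalised CPM against 51.8 to 116.

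Messages of cells other than secretory epithelium made up a small part of each library. In bulk tissue, fewer cells of a type and less RNA per cell cannot be told apart. The 10 myoepithelial markers, led by the smooth muscle actin gene Acta2, summed to 442 to 556 normalised CPM and so differed little between dams. The 6 general luminal markers, keratin, claudin and Epcam genes, summed to 278 to 396. Macrophage markers summed to 32.4 to 53.6 normalised CPM and endothelial markers to 36.7 to 77.1. Fibroblast markers summed to 81.9 in dam 10 and to 111 to 195 normalised CPM in the other 7. Markers of T cells, B cells and neutrophils each summed to under 3 CPM in every dam, with 0.0379 CPM on average for the neutrophil gene Mpo and 0.0262 CPM for the B cell gene Pax5. Keratinocyte markers summed to 2.86 CPM on average with Flg at 0 counts in all dams, brown fat markers to 3.35 CPM with Ucp1 at 0.163 CPM, and lymph node markers to 7.77 CPM with Ccl19 at 0 counts in all dams. Erythroid markers summed to 52.0 to 104 and Schwann cell markers to 91.3 to 135 normalised CPM, the latter mostly Sox10, which mammary epithelium also expresses.

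Most listed cell cycle genes had low levels, and Mki67 stood above the rest. How many cells were dividing was not measured. Only 2 of 10 cell cycle genes, Mki67 at 42.6 CPM ± 5.99 (SD, n = 8) and Pcna at 12.5 CPM ± 1.63, exceeded 5 normalised CPM. The mitotic genes Ccnb1 and Aurkb averaged 0.337 and 0.405 CPM. This list was among the most even, with a sum between 55.6 and 71.6 normalised CPM.

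Spread between dams was measured as the excess coefficient of variation (CV), which is what remains of the CV of normalised CPM after the part given by counting is removed. Over the 7233 genes with a mean of at least 5 normalised CPM, its median was 18.2%, with quartiles of 13.5% and 24.5%, while counting alone gave a median CV of 6.05%. An excess CV above 50% was found in 186 genes (2.57%) and above 100% in 31. It was under 10% in 755 genes (10.4%) and 0 in 35. Caseins were more even than the typical gene, with a median of 12.2%, or 7.26% on library totals alone, and 0 of 5 above the median of all genes. They held a mean of 48.5% of counts, so their CPM cannot vary independently of the library total. How far this lowers their spread against that of scarcer genes was not tested. Other milk proteins had a median of 21.3%, ribosomal protein genes 17.4%, long non-coding RNA genes 25.7% and pseudogenes 23.7%. Immunoglobulin genes had 74.8%, and 9 of 9 were above 50%.

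**Figure D3:**
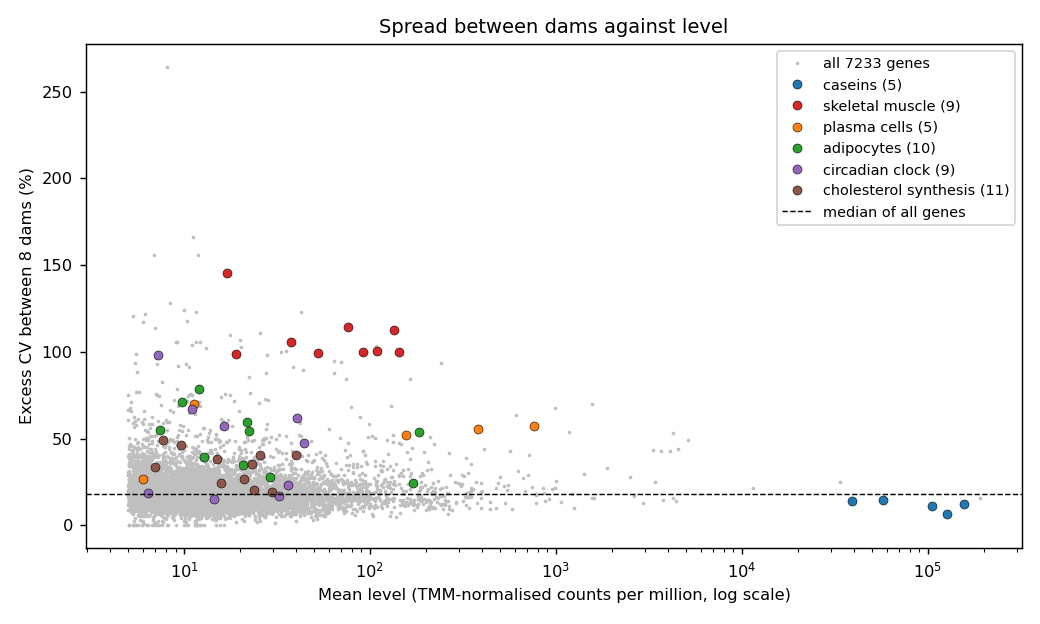
Excess CV between the 8 dams in percent (vertical axis) against mean normalised CPM (horizontal log axis) for 7233 genes, with members of 6 lists in colour and the median of all genes, 18.2%, as a dashed line. All 9 measured skeletal muscle markers lie near or above 98.5%, and the 5 caseins lie below the line.

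In the 35 genes with an excess CV of 0 the dams differed by no more than counting gives. The 15 of them with the smallest CV of normalised CPM were Zfp148, U2surp, Uspl1, Acot9, Fam50a, Cert1, Ppt2, Auh, Oaz2, Pak1ip1, Cdk8, Zfp638, Mea1, Tlk1 and Smim1. Zfp148, a zinc finger transcription factor gene, ranged from 10.8 through 11.5 to 11.9 normalised CPM. U2surp, a gene of the splicing machinery, ranged from 9.73 through 10.6 to 10.9. At such levels a count of 0 excess is limited by depth, so the steadiest genes above 100 normalised CPM were listed too, a choice made after the values were seen. Slc25a3, the mitochondrial phosphate carrier gene, led them with an excess CV of 4.6%, from 128 through 136 to 147 normalised CPM. Hnrnpu, an RNA-binding protein gene, had 5.3% and Tle5, a transcriptional corepressor gene, 5.5%, but on library totals alone these were 11.9% and 10.8%. Csn1s1 itself followed with 6.3%, ahead of Nucb2 with 6.4%.

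Genes often used as references for expression were not uniformly steady. Of 15 listed, 14 exceeded 5 normalised CPM and their median excess CV was 19.6%, and 8 were above the median of all genes. Ywhaz had 7.1% and ranged from 54.1 to 65.7 normalised CPM, and Eef1a1 had 9.8% and ranged from 1071 to 1399. Actb had 23.7% and ranged from 204 to 451, and Ppia had 25.6%. B2m, the light chain of class I histocompatibility molecules, had 41.3% and ranged from 76.4 in dam 10 to 208 normalised CPM in dam 1. Gapdh was counted at only 4.55 CPM ± 2.12 (SD, n = 8). The mouse genome holds many near-identical copies of it, so that its reads may not be placed uniquely and this level is uncertain.

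The most variable genes were not spread evenly over the dams. Of the 100 with the largest excess CV, 46 were highest in dam 11, 23 in dam 3, 10 in dam 10, 9 in dam 12, 5 in dam 4, 3 each in dams 2 and 6, and 1 in dam 1. Of all 7233 genes, 481 were highest in dam 11, 1221 in dam 3, 1177 in dam 10, 1195 in dam 4, and 635 to 862 in each of the others. Dam 11 was thus highest in the fewest genes overall but in the most of these 100. Dam 2 was lowest in 42 of the same 100 genes and in 427 of all genes, the fewest of any dam. The 15 most variable genes were Myh7, Mt2, Myh2, H19, Myh1, Cryab, Neb, Ttn, Ryr1, Xirp2, Cmya5, Pgam2, Eef1a2, Atp2a1 and Ak1, with excess CVs from 264.3% down to 113.7%. Of these, 14 were highest in dam 11 and Mt2 was highest in dam 3, and only 1 of the 15 was still among the 15 most variable when dam 11 was left out.

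**Figure D4:**
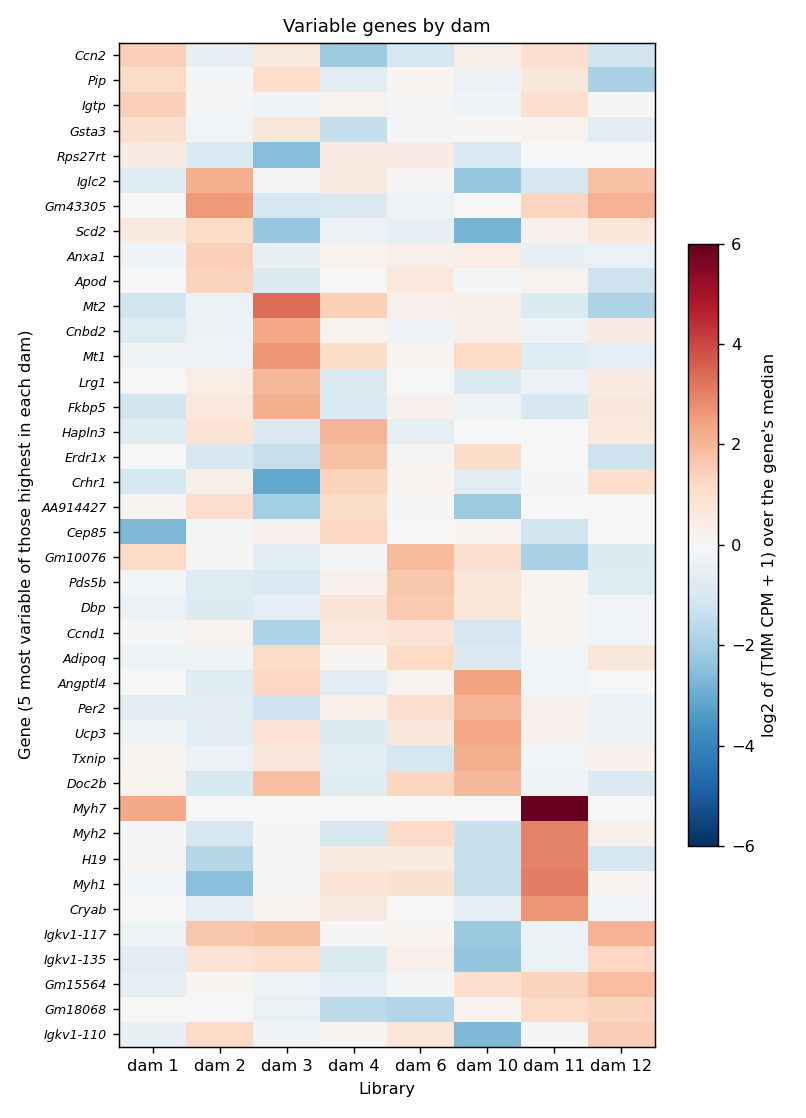
Level of the 5 most variable genes among those highest in each dam (rows), by dam (columns), as log2 of normalised CPM + 1 minus the gene's median over dams (colour, from blue for below to red for above). Dam 11 is highest in Myh7, Myh2, H19, Myh1 and Cryab, dam 3 in Mt2, Cnbd2, Mt1, Lrg1 and Fkbp5, and dam 10 in Angptl4, Per2, Ucp3, Txnip and Doc2b.

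Skeletal muscle messages gave the widest range. The 10 listed markers summed to 59.1 normalised CPM in dam 2, 306 to 647 in 5 dams, 1045 in dam 4 and 2304 in dam 11, a wider range than that of any other marker list. Acta1, the actin of skeletal muscle fibres, ranged from 12.7 through a median of 75.3 to 483 normalised CPM, and Ckm, muscle creatine kinase, from 10.6 through 67.3 to 353. Myh7, the slow-fibre and cardiac myosin heavy chain, was at 61.1 normalised CPM in dam 11 and 3.79 in dam 1 and had 0 counts in the other 6. Ttn, encoding the sarcomeric spring titin, ranged from 5.12 through 22.3 to 168. All 9 markers above 5 normalised CPM had an excess CV above 50%, with a median of 100.3%, and of 71.0% without dam 11. H19, an imprinted non-coding RNA gene, was also highest in dam 11 at 56.7 normalised CPM and lay between 1.21 and 9.96 in the others. The TMM factor of dam 11 was the highest, at 1.165, with 1.03 the next. After that scaling its casein sum was the lowest, at 404983 normalised CPM against 472822 to 539812, whereas its casein share of the library total, 47.2%, lay within the range of the others. The part of muscle RNA in either value was not tested.

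Antibody messages were the second such group. The 8 plasma cell markers summed to 70.5 normalised CPM in dam 10 and to 716 to 2279 in the other 7, of which dam 3 had the most. Igha, the heavy chain of the immunoglobulin A that is passed into milk, held 35.7 normalised CPM in dam 10 and 391 to 1301 in the others. Igkc, the kappa light chain gene, held 18.8 against 226 to 684. Jchain, which joins immunoglobulin A into dimers, held 7.36 against 86.3 to 257. Dam 10 was thus below every other dam by over 10-fold in each of these 3 genes. Pigr, the epithelial receptor that carries the dimers into milk, was not low in dam 10, at 461 normalised CPM against 439 to 821. Without dam 10 the median excess CV of the 5 markers above 5 normalised CPM was 37.8% in place of 55.3%.

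Adipocyte markers were high in dams 3 and 6. The 10 listed genes summed to 836 normalised CPM in dam 3, 708 in dam 6 and 340 to 468 in the other 6, and all 10 had an excess CV above the median of all genes. Adipoq, encoding the hormone adiponectin, held 39.7 in dam 3 and 40.6 in dam 6 against 9.08 to 28.3 normalised CPM. Cidec, a lipid droplet protein of fat cells, held 46.6 and 36.3 against 11.2 to 22.9. Lep, encoding leptin, did not share this pattern and held 4.54 in dam 3 and 5.18 in dam 6, with the highest levels in dam 12 at 20.8 and dam 2 at 18.98 normalised CPM.

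Dam 3 was highest in several single genes, chosen after their values were seen. Its summed acute phase list was the highest too, at 1075 normalised CPM against a median of 602, but not by a gap past Dixon's limit for 8 samples. Mt1 and Mt2 encode metallothioneins, small proteins that bind zinc and copper. Mt1 held 369 normalised CPM in dam 3 and 34.3 to 134 in the others, and Mt2 held 56.3 in dam 3 and 0.539 to 14.2 in the others. Fkbp5, a co-chaperone of steroid receptors that glucocorticoids induce, held 204 normalised CPM in dam 3 and 20.8 to 75.4 elsewhere. The acute phase genes Lrg1 and Lcn2 were highest there too, Lrg1 at 18.4 normalised CPM against 1.71 to 5.89 and Lcn2, encoding lipocalin 2, at 631 against 255 to 378. Lcn2 was the most abundant of the 11 listed acute phase genes and made up most of their sum in dam 3. The serum amyloid gene Saa1, also of this list, did not follow Lcn2 over the dams (r = -0.215, rho = -0.167). C4b, a complement gene, held 134 in dam 3 and 10.8 to 56.5 elsewhere. Stat3, a transcription factor that drives involution when milk stays in the gland, held 92.2 normalised CPM in dam 3 and 29.3 to 51.3 in the others. The 14 listed genes of STAT3 and early involution summed to 1016 normalised CPM there against a median of 818, a gap within Dixon's limit. The casein share of dam 3, 49.1%, lay within the range of the other dams.

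The promoters of both metallothionein genes are shown because these neighbouring genes were the most variable of their list and both peaked in dam 3. They are the 250 bases before the RefSeq start in GRCm38.p6, on the plus strand, at chr8:94178839-94179088 for Mt1 and chr8:94172368-94172617 for Mt2. Capitals mark TGCGCNC or TGCACNC, the core of the metal response element, on either strand.
Mt1: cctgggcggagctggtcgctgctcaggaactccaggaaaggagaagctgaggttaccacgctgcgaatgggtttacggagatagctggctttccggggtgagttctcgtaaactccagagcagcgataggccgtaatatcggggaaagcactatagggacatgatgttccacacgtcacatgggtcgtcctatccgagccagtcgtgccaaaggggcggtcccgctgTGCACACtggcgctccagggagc
Mt2: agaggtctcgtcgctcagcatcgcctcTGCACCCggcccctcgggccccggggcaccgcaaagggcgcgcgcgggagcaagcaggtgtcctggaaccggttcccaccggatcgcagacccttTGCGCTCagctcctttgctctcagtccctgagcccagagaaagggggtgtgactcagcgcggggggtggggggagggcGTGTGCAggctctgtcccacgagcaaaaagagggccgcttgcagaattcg
The Mt1 window held 1 match, which ended 17 bases before the start, and the Mt2 window held 3, which ended 217, 122 and 44 bases before it. Each window depends on the RefSeq start used, and sequence outside it, including the bases after that start, was not searched. These numbers of matches are therefore not a count of the elements of either promoter and do not compare the 2 genes. The letters are common, since 7032 of 32851 windows (21.4%) held at least 1 match. Among windows of protein-coding genes with a mean of at least 5 normalised CPM, 2235 of 7339 (30.5%) did.

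Dam 10 was highest in 3 further genes, also chosen after their values were seen. Txnip, encoding the glucose-responsive thioredoxin-interacting protein, held 781 normalised CPM in dam 10 and 81.0 to 278 in the others. Angptl4, a secreted inhibitor of lipoprotein lipase, held 42.0 against 3.84 to 18.3. Ucp3, a mitochondrial carrier gene linked to fatty acid use, held 224 against 25.2 to 82.5. Dam 3 was the next highest dam in each of these 3 genes.

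The clock list summed to 356 normalised CPM in dam 10 against a median of 206, a gap within Dixon's limit. Among clock genes, the 9 above 5 normalised CPM had a median excess CV of 47.3%, and 4 were above 50%. Per2, a repressor of the clock, held 23.1 normalised CPM in dam 10, 11.3 in dam 6 and 1.51 to 6.37 in the others. Per1 held 88.6 in dam 10 and 18.2 to 59.9 elsewhere, and Dbp, a clock output factor, was highest in dam 6 at 26.6 against 4.31 to 15.1 normalised CPM. Clock itself was steady, from 11.99 to 19.1 normalised CPM. The labels do not give the hour at which a gland was taken. Immediate early genes, which respond to stimulation within minutes, varied as well, and Fos held 40.9 normalised CPM in dam 12, 34.5 in dam 4, 26.8 in dam 3 and 7.63 to 11.7 in the other 5.

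**Figure D5:**
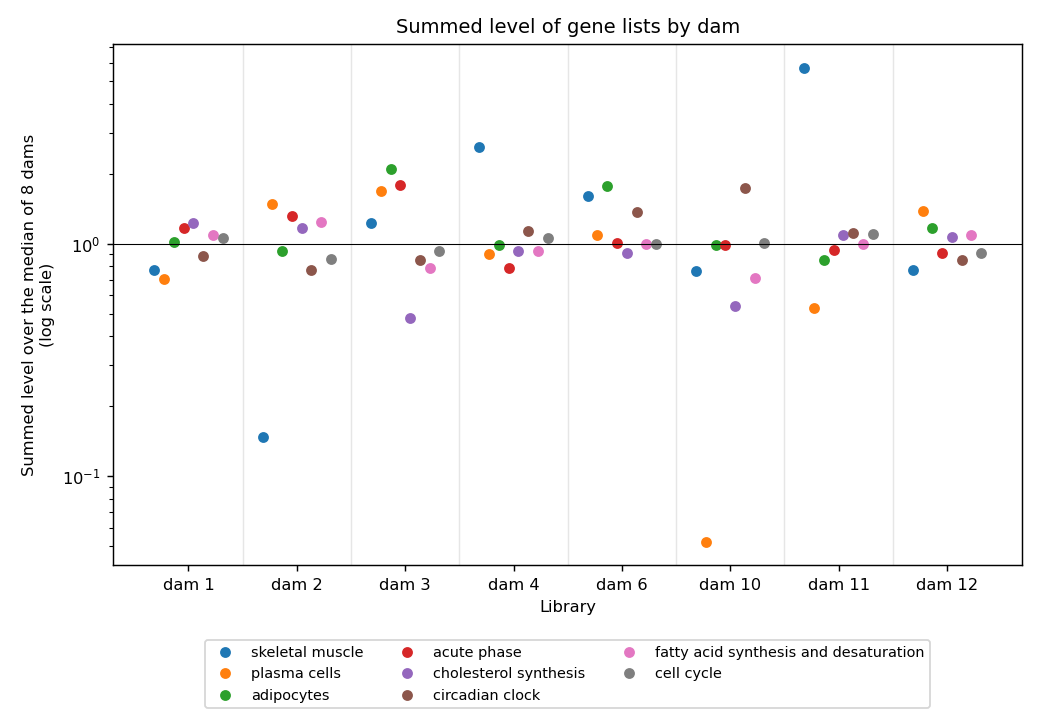
Summed normalised CPM of 8 gene lists in each of the 8 dams (horizontal axis), each divided by the median of its 8 dams (vertical log axis). Skeletal muscle is highest in dam 11 and lowest in dam 2, plasma cells are lowest in dam 10, cholesterol synthesis is lowest in dams 3 and 10, and the cell cycle list stays near the line in every dam.

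The plot of the summed lists shows that different lists picked out different dams. Among the lists, median excess CVs ran from 10.0% for the 2 cell cycle genes and 12.2% for the caseins through 15.9% for the milk fat globule, 18.4% for calcium transport, 23.5% for fatty acid synthesis, 25.3% for the chaperones, 35.1% for cholesterol synthesis and 41.6% for the acute phase to 55.3% for plasma cells and 100.3% for skeletal muscle, beside 18.2% for all genes. All 13 chaperone and secretion genes and all 11 cholesterol genes above 5 normalised CPM were above the median of all genes. Without dam 3, the cholesterol median was 27.6%. Without dams 3, 10 and 11 together, a choice made after the values were seen, it was 18.97%, and 106 genes had an excess CV above 50% in place of 186.

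Correlations over the 8 dams were computed for 12 pairs of genes on log2 normalised CPM. The muscle genes Acta1 and Ckm had r = 0.993 and rho = 0.929 (two-sided exact permutation p = 9.92e-05 and 0.00223, adjusted p = 5.95e-04 and 0.0134), and r was 0.968 without dams 2 and 11. The antibody genes Jchain and Igkc had r = 0.997 and rho = 1 (exact permutation p = 2.48e-05 and 4.96e-05, adjusted p = 2.98e-04 and 5.95e-04), and r was 0.991 without dams 10 and 11. Both pairs join markers of 1 cell type, and no other pair passed after adjustment. Wap and Csn2 had r = 0.633 and rho = 0.381 (exact permutation p = 0.0902 and 0.360, adjusted p = 0.216 and 0.617), and r was 0.626 without dams 4 and 11. Csn2 and Saa1, a serum amyloid gene, had r = 0.751 and rho = 0.786 (exact permutation p = 0.0307 and 0.0279, adjusted p = 0.123 and 0.112), and r was 0.377 without dams 6 and 11 and 0.926 without dam 10. Fos and Egr1 had r = 0.686 and rho = 0.667 (exact permutation p = 0.0636 and 0.0831, adjusted p = 0.191 and 0.249), and r was -0.0291 without dams 4 and 12. The clock genes Dbp and Bmal1 had r = -0.475 and rho = -0.476 (exact permutation p = 0.232 and 0.243, adjusted p = 0.465 and 0.583), and r was -0.343 without dams 2 and 6. The other 6 pairs were Csn2 with Adipoq, Csn2 with Col1a1, Adipoq with Lep, Krt14 with Acta2, Saa1 with Lcn2 and S100a8 with S100a9. They had r between -0.215 and 0.235 and rho between -0.381 and 0.0476, with adjusted exact permutation p of at least 0.937 for r and 0.617 for rho. Without the 2 farthest dams of each pair, r lay between -0.961 for Csn2 with Adipoq and 0.597 for Adipoq with Lep, and it was -0.323 in place of -0.215 for Saa1 with Lcn2.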

How the data were processed

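RNA of 8 glands was measured, 1 library per dam, and the 23 libraries of the other groups were not used. The authors checked reads with FastQC 0.11.7, trimmed them with Trim Galore 0.4.4, aligned them against GRCm39 (HISAT2) and assigned them to genes (HTSeq) in the intersection-nonempty mode, so the deposited values are raw whole-number counts without normalization. The annotation release and strand option are not given in the sources used here. Reads shared by near-identical copies, overlapping genes or antisense partners therefore leave those genes uncertain.

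Symbols, positions and lengths came from GENCODE vM39, which lacks 667 listed genes. CPM used the library total, and spread used TMM factors from edgeR 4.0.16 in R 4.3.3. Excess CV is the square root of the squared CV minus the squared CV expected from counting, set to 0 where negative, for genes with a mean of at least 5 normalised CPM. Its calculation was tested on simulated data. Neighbours in TPM order were compared by exact sign-flip permutation of log2 ratios over dams (256 sign changes), and 12 gene pairs by exact permutation (40320 orders, prior count 2), with two-sided p-values adjusted by the Benjamini-Hochberg method within each family at 0.05. Pseudogenes were compared with the mitochondrial chromosome with BLAST 2.17.0. Promoter windows came from RefSeq. Python 3.11.15, NumPy 2.4.6, SciPy 1.17.1, pandas 2.3.3 and matplotlib 3.10.9 were used.

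Genes were named if they were among the 20 most abundant by CPM or TPM, among the 15 most or least variable, in the gene pairs, or of a list the 2 most abundant, the least abundant, the most variable, those at 0 and members that define a role. Genes given for a single dam, the steady genes above 100 normalised CPM, the 50% and 10% limits and other members named outside this rule were chosen after the values were seen. A few genes the rule would name are left out. The dams, lists and tests were chosen with earlier results of these data known. Alternatives changed scaling, low-count filter, length, prior count and the dams included.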

Additional observations from a re-analysis of the deposited data

Results flagged for a closer look

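For 152 values over the 8 dams, the dam at one end was compared with its nearest neighbour, and where that gap was a larger part of the whole range than Dixon's 95% critical value for 8 samples, the value is given here. Chance flags about 1 in 20 such groups where values follow a normal distribution, which was not checked for these levels. In all, 33 were found. Many of the genes were named because of a single dam, so this number is not a measure of how often dams stand apart.

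Among the library summaries, dam 4 had the largest share of other milk proteins, 28.2% of counts against a median of 24.4%, and the fewest genes detected, 16484. Dam 11 had the smallest share in its 20 leading genes, 73.3%, and dam 10 needed 3 genes to reach 50% of counts. Among the summed lists, in normalised CPM, dam 3 was highest in trace metal handling with 2615 against a median of 1822 and in neutrophil markers with 2.41, a level of few counts. Dam 6 was highest in markers of hormone-sensing luminal cells with 65.6 and dam 4 in erythroid markers with 104. Dam 11 was highest in skeletal muscle markers with 2304 against a median of 403.

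Among single genes, in normalised CPM, dam 3 was highest in Mt1 with 369, Mt2 with 56.3, Fkbp5 with 204, Lrg1 with 18.4, Lcn2 with 631, C4b with 134, Stat3 with 92.2, Slc18a1 with 5.10 and the ferritin gene Fth1 with 1086. Dam 3 was lowest in Acaca with 248. Dam 10 was highest in Txnip with 781, Ucp3 with 224, Angptl4 with 42.0 and Per2 with 23.1. Dam 11 was highest in Acta1 with 483, Ttn with 168, Myh7 with 61.1 and H19 with 56.7. Dam 6 was highest in Esr1 with 29.1, and dam 4 was lowest in U2surp with 9.73 against a median of 10.6. The excess CV of U2surp was 0, so its dams differed by no more than counting gives. Ucp1 in dam 3 with 1.12, Htr7 in dam 4 with 0.228, Pax5 in dam 10 with 0.221 and Mpo in dam 10 with 0.176 were flagged too, each with a median of 0 over the dams and few counts. No explanation of these values was tested.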

How the results depend on the processing

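No paired analysis was possible because the 8 dams form a single group and no value comes from a test between groups.

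On TPM of merged exons, the 20 leading genes held 85.8%, 2 genes reached 50% and 108 genes reached 90%, caseins held 22.6% and other milk proteins 48.5%. On canonical transcripts, chosen after seeing the data, these were 90.04% for the leading genes, 20.5 genes for 90%, 46.2% and 41.7%. Of the 19 neighbouring pairs, 5 differed with the longest transcript and 12 on canonical transcripts. In the order on merged exons, 6 differed without dam 3 and 0 without any other dam, but with 7 dams the smallest p is 0.015625, so that fewer than 6 pairs cannot pass together, and these counts say nothing about stability.

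Scaling by library total or RLE factors kept the median excess CV within 18.1% to 19.2%. A filter at 1 CPM gave 21.0%, no filter 37.0% and edgeR's tagwise dispersion 21.0%. Genes above 50% numbered 679 with the filter at 1 CPM, 63 with a filter at 20 CPM, 10515 with none and 93 by tagwise dispersion. They numbered 152 to 212 with 1 dam left out and 106 without dams 3, 10 and 11. Genes under 10% numbered 251 with the filter at 20 CPM, 2991 with none, 0 by tagwise dispersion, which shrinks genes towards a common spread, and 719 to 1147 with 1 dam left out, the most without dam 4. Of the 15 most variable genes, 2 remained with either filter, 0 with none, 8 by tagwise dispersion, 7 by the SD of log2 CPM, and 1 to 15 with 1 dam left out. Of the 100 most variable, 31 remained with the filter at 1 CPM, 34 at 20 CPM and 1 with none. The filter on low counts thus changed which genes rank highest.

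The correlation of Krt14 with Acta2 was -0.122 on library totals. With 1 dam left out, r ranged from -0.497 to 0.214 for Csn2 with Adipoq, -0.277 to 0.279 for Csn2 with Col1a1, -0.471 to 0.197 for Adipoq with Lep, -0.0557 to 0.463 for Krt14 with Acta2, -0.413 to 0.235 for Saa1 with Lcn2, and -0.807 to 0.325 for S100a8 with S100a9. Csn2 with Saa1 passed only without dam 10 (r = 0.926, exact permutation, adjusted p = 0.0119). The causes were not tested.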
